A study of Mus musculus with 8 samples.

Results

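The genes described here encode the kinesin motors and the parts of the kinetochore, together with the Aurora and Polo-like kinases that steer them. They were chosen by symbol: Kif genes whose suffix starts with a digit or c, every Cenp gene, Bub1, Bub1b, Bub3, the Aurk and numbered Plk genes, Spc24, Spc25, Nuf2 and Ndc80. The rule found 75 of the 16482 genes in the 3 deposited tables. All 75 were in the poly(A) RNA table, 59 were in the CLIP table, 62 were in the ribosome footprint table and 58 were in all 3. By role they were 15 mitotic kinesins, 26 other kinesins, 14 inner kinetochore genes and 8 outer kinetochore and spindle checkpoint genes. There were also 5 mitotic kinases and 3 other Polo-like kinases. The symbols also caught 4 genes that were placed in none of these role groups (Cenpj, Cenpv, Aurkaip1 and Plk1s1).

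All libraries came from A3-1, a mouse embryonic stem (ES) cell line that the labels describe as grown in medium with serum and LIF. LIN28A, made mainly in early embryos and stem cells, binds RNA, including the precursors of let-7 microRNAs. In CLIP-seq, UV light fixes a protein to the RNA it touches, and the RNA pulled down with that protein is sequenced; it was done against LIN28A with the monoclonal antibodies 35L33G and 2J3 and with a polyclonal antibody, 1 library each, and no siRNA is listed for these libraries. Poly(A) RNA was sequenced from cells 48 h after Lin28a siRNA (siLin28a), from cells 48 h after luciferase siRNA (siLuc) and from untreated cells, and ribosome footprints, the mRNA fragments that ribosomes shield from nuclease, from siLin28a and siLuc cells, again 1 library each. The labels list no genetic change of the line, and the siRNA lowered Lin28a RNA without removing it. The siLin28a duplex, shown because every siRNA comparison rests on it, is listed in the labels as these strands of 19 bases each, without the overhangs, 5′ to 3′, with no base singled out.
siLin28a strand 1: auguucuucccuuuuggcc
siLin28a strand 2: ggccaaaagggaagaacau

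At mitosis, kinetochores assemble on centromeric chromatin marked by the histone variant CENP-A. An inner layer of CENP proteins sits on this chromatin, and an outer layer built around the NDC80 complex holds microtubule ends. Mitotic kinesins slide, cap or shorten spindle microtubules, whereas the other kinesins carry cargo or act at cilia. Aurora and Polo-like kinases and the BUB proteins time these steps and delay anaphase until chromosomes are attached, and ES cells, which divide rapidly, express the whole apparatus.

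Exon counts in CLIP came to 7698479 with 35L33G, 7849235 with 2J3 and 8027670 with the polyclonal antibody. The poly(A) libraries held 9605641 (siLin28a), 7475174 (siLuc) and 9264777 (untreated) counts, and the footprint libraries 5980673 (siLin28a) and 7570209 (siLuc). Lin28a mRNA in siLin28a cells was at 33.4% of its siLuc level and its footprints at 25.7%. All 10 ES cell markers looked up were present, with Pou5f1 at 1055 (siLin28a), 863 (siLuc) and 874 (untreated) RPKM (reads scaled to transcript length and library total). The summed level of 8 differentiation markers was 6.20 RPKM in siLin28a, 3.58 in siLuc and 2.88 in untreated cells. Nes was the largest part, at 3.47, 1.66 and 1.43 RPKM in the same order. Pax6 and Foxa2 were lower in siLin28a than in siLuc cells. Apart from Nes and Sox1, no marker had more than 12 counts in a library. Of 7 fibroblast markers 3 were in the table, summing to 6.47, 13.8 and 14.4 RPKM in siLin28a, siLuc and untreated cells; nearly all of this was Thy1, and the collagens Col1a1 and Col1a2 were at most at 0.368 RPKM.

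The level of each mRNA was read first, in untreated cells and per transcript length. Outer kinetochore and checkpoint genes had a median of 44.7 RPKM (range 20.3 to 119, 8 genes), mitotic kinesins 25.8 (7.03 to 93.9, 15 genes) and inner kinetochore genes 17.2 (4.63 to 108, 14 genes). The other kinesins, most of which serve neurons, cilia or membrane traffic, had a median of 6.11 RPKM (0.0295 to 61.8, 26 genes). Bub1b, the checkpoint protein BUBR1 (mm9 chromosome 2, 118423947 to 118467328), at 128 (siLin28a), 131 (siLuc) and 119 (untreated) RPKM, and Aurkaip1, at 121, 140 and 119 RPKM in the same order, stood at the top in untreated cells and were level with each other there. Plk1, the Polo-like kinase that drives mitotic entry (mm9 chromosome 7, 129302951 to 129313389), was at 111 RPKM in untreated cells. Cenpa, the centromeric histone, was at 131 RPKM in siLin28a, 122 in siLuc and 108 in untreated cells, and so above Bub1b in siLin28a cells. Spc24 was at 98.3, Aurka at 94.8 and the chromokinesin Kif22 at 93.9 RPKM in untreated cells. Kif5b, a heavy chain of conventional kinesin that is used by most cell types, was the only cargo kinesin above 20 RPKM there. At the low end, Kif17, Kif19a, Kif26b, Kif27 and Kif6, several of them kinesins of cilia or neurons, had between 5 and 20 counts in untreated cells, and Kif4b, a non-coding copy of Kif4, had 0 (siLin28a), 0 (siLuc) and 1 (untreated) count. These are bulk libraries, in which fewer cells in mitosis and less RNA per cell cannot be told apart.

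The 250 bases upstream of the start sites were read from RefSeq (GRCm38.p6) for 63 of the 75 genes, 70 promoters in all. Many cell-cycle promoters hold the cell cycle genes homology region, searched here as TTTGAA, and CCAAT boxes, searched as CCAAT, each on both strands. CCAAT was present in 50% of the 70 promoters and TTTGAA in 18.6%, against 33.8% and 16.0% of all 32851 promoters of the same length. Among the 43 promoters of genes placed in the mitotic and kinetochore role groups the shares were 60.5% and 23.3%. Among the 27 others, which include that of Cenpv, they were 33.3% and 11.1%. Both motifs stood in upstream windows of Bub3, Cenpl, Cenpn, Cenpw, Kif11, Kif14, Kif22, Kif26b and Kif27. In Cenpw they share a base. The windows of Kif14, Kif27 and Kif2c, and that of Kif1a at chr1:93082481-93082730, end in tag or cag, as introns do. They may lie within the gene, which was not checked. Each of them holds TTTGAA, so the TTTGAA shares above may include sequence that is not promoter. A match describes letters only. The sequences of 4 promoters follow, 5′ to 3′ on the gene's strand with the motif matches in capitals: Kif11 (chr19:37376132-37376381, plus strand) and Kif22 (chr7:127042421-127042670, minus strand), which hold both motifs, and Aurka (chr2:172370571-172370820, minus strand) and Plk1 (chr7:122159185-122159434, plus strand), which hold CCAAT alone; all 4 had fewer footprints in siLin28a cells, as described further on.
Kif11: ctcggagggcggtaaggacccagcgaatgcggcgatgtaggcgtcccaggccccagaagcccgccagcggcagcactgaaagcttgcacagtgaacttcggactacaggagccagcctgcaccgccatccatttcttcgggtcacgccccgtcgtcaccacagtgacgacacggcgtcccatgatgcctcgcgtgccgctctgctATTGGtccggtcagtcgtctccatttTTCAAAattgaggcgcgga
Kif22: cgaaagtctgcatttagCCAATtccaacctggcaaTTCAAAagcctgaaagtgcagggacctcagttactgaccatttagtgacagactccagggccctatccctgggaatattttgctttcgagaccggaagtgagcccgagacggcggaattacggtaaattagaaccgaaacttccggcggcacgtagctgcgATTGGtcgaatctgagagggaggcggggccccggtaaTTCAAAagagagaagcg
Aurka: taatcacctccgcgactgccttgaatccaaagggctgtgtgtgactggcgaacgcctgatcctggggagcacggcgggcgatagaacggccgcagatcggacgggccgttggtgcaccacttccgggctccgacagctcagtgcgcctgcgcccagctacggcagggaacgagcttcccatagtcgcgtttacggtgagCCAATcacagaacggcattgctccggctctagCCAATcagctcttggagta
Plk1: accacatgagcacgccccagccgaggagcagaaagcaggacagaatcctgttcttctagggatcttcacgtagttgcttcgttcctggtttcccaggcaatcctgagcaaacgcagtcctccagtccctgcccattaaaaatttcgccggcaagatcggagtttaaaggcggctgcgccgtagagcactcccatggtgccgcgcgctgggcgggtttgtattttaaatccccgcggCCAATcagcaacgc

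Which of these mRNAs were over- or under-represented among LIN28A-crosslinked RNA was asked by comparing the 3 CLIP libraries with untreated poly(A) RNA. The NDC80 complex split: 3 of its 4 subunits were enriched and the remaining one was depleted. The large outer kinetochore protein CENP-F had the highest enrichment of all 59 genes, while Aurkb, Plk1, Bub1b and several inner kinetochore and transport genes were depleted. In all, 14 genes were enriched and 23 depleted at an adjusted p below 0.05 in edgeR's quasi-likelihood test, or 23.7% and 39.0% of 59, against 34.6% enriched and 33.3% depleted among all 7820 transcripts tested. The median log2 enrichment was −0.22 for the 59 genes and −0.03 for all transcripts, and 50 of the 59 had the same sign with all 3 antibodies. Each antibody gave 1 library, and no label says that these came from separate cultures, so the p-values reflect only how far the libraries scatter, and that scatter may be technical. The lone poly(A) library is assumed to vary like them, and no control CLIP library was used.

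Among the outer kinetochore genes, Cenpf (NM_001081363, mm9 chromosome 1, 191464493 to 191511965) had 18095, 19450 and 20411 CLIP counts with 35L33G, 2J3 and the polyclonal antibody, against 5234 counts in untreated poly(A) RNA. All 3 antibodies lay far above the input, and the log2 enrichment was 2.43 ± 0.07 (SD, n = 3; adjusted p = 1.23e-16, edgeR). Nuf2, the partner of NDC80 in the microtubule-binding arm of the complex, had 1530, 1440 and 1785 CLIP counts against 602 in untreated poly(A) RNA, a log2 enrichment of 1.94 ± 0.14 (SD, n = 3; adjusted p = 5.20e-10, edgeR). Spc25, a subunit of the end that faces the chromosome, had 606, 605 and 755 CLIP counts against 361 in untreated poly(A) RNA, or 1.40 ± 0.16 (SD, n = 3; adjusted p = 7.11e-06, edgeR). Ndc80 itself had 567, 615 and 506 CLIP counts against 414 in untreated poly(A) RNA and was enriched by 0.99 ± 0.16 (SD, n = 3; adjusted p = 0.000406, edgeR). Spc24, which pairs with SPC25 in the same complex, went the other way. It had 544, 511 and 500 CLIP counts against 1228 in untreated poly(A) RNA, a log2 value of −0.70 ± 0.08 (SD, n = 3; adjusted p = 0.0013, edgeR). Of the checkpoint proteins, Bub1b was depleted in all 3 libraries, with 1146, 1227 and 1278 CLIP counts against 4043 in untreated poly(A) RNA (−1.18 ± 0.06, SD, n = 3; adjusted p = 4.59e-09, edgeR). Bub1 and Bub3 were near the input, at −0.09 ± 0.05 and −0.22 ± 0.15, and were not called.

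The mitotic kinesins divided into 6 enriched, 5 depleted and 4 not called, with a median log2 enrichment of −0.17. Over all 7820 transcripts 34.6% were enriched and 33.3% depleted. Cenpe, the motor that carries chromosomes to the spindle equator, had 2610, 2718 and 2944 CLIP counts against 1592 in untreated poly(A) RNA (1.34 ± 0.07, SD, n = 3; adjusted p = 8.95e-10, edgeR). Kif20b, a motor of cytokinesis, followed at 1.29 ± 0.11, then the microtubule depolymerase Kif2a at 0.91 ± 0.11 and Kif11, the motor that pushes spindle poles apart, at 0.80 ± 0.05. Kif4 and Kif14 were enriched by 0.51 ± 0.22 and 0.50 ± 0.09. At the other end, Kif2c, another depolymerase that works at centromeres, had 463, 332 and 378 CLIP counts against 1516 in untreated poly(A) RNA (−1.42 ± 0.25, SD, n = 3; adjusted p = 1.70e-06, edgeR). The related genes Kif2a and Kif2c were thus called in opposite directions. Kif22 was at −1.06 ± 0.12, Kif23, the motor of the central spindle, at −0.93 ± 0.38, Kif18b at −0.90 ± 0.16 and Kif20a at −0.60 ± 0.04, all depleted. Kif15, Kif18a, Kifc1 and Kifc5b were not called; Kifc1 and Kifc5b are near-identical copies between which reads may have been split, so their values are uncertain.

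Of 17 other kinesins in the CLIP table, 3 were enriched and 9 depleted, against 34.6% and 33.3% of all 7820 transcripts. The enriched ones included 2 heavy chains of conventional kinesin, Kif5c at 1.58 ± 0.13 and Kif5b at 0.73 ± 0.02, while the neuronal heavy chain Kif5a was depleted at −0.89 ± 0.44. Kif1b, a motor for mitochondria and synaptic vesicle precursors, was enriched by 1.20 ± 0.10. The atypical kinesin Kif26a was the most depleted kinesin of the 32 measured, with 87, 46 and 84 CLIP counts against 447 in untreated poly(A) RNA (−2.13 ± 0.51, SD, n = 3; adjusted p = 0.000155, edgeR). The cilium proteins Kif7 and Kif24 were at −1.60 ± 0.20 and −1.28 ± 0.44, and the intraflagellar motor subunit Kif3a at −0.88 ± 0.16. Kif13b, Kif1c, Kif21b and Kifc3 made up the rest of the depleted kinesins, between −0.69 and −0.77.

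Among the inner kinetochore genes only Cenpn, whose product binds CENP-A nucleosomes, was enriched, at 0.74 ± 0.01, and 3 of 11 were depleted. The shares over all 7820 transcripts were 34.6% enriched and 33.3% depleted. Cenpm had the lowest value of all 59 genes, with 55, 21 and 29 CLIP counts against 339 in untreated poly(A) RNA (−2.82 ± 0.71, SD, n = 3; adjusted p = 0.000118, edgeR). Cenpt, which links the inner layer to NDC80, was at −1.53 ± 0.14 and the satellite-binding protein Cenpb at −1.30 ± 0.19. Cenpa was level with the input, at 0.05 ± 0.03. No mitotic kinase was enriched. Aurkb, the kinase that corrects wrong attachments, had 361, 322 and 351 CLIP counts against 1608 in untreated poly(A) RNA (−1.67 ± 0.09, SD, n = 3; adjusted p = 4.38e-08, edgeR), and Plk1 had 752, 609 and 774 against 2262 (−1.13 ± 0.19, SD, n = 3; adjusted p = 9.52e-07, edgeR). Aurka and Plk4 were not called, at −0.23 ± 0.26 and 0.41 ± 0.13. The stress-responsive kinase gene Plk3 was at −2.76 ± 0.41 with only 37, 23 and 23 CLIP counts against 272 in untreated poly(A) RNA; its locus overlaps Tctex1d4, and use of strand in the counting is not given in the sources used here.

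**Figure D1:**
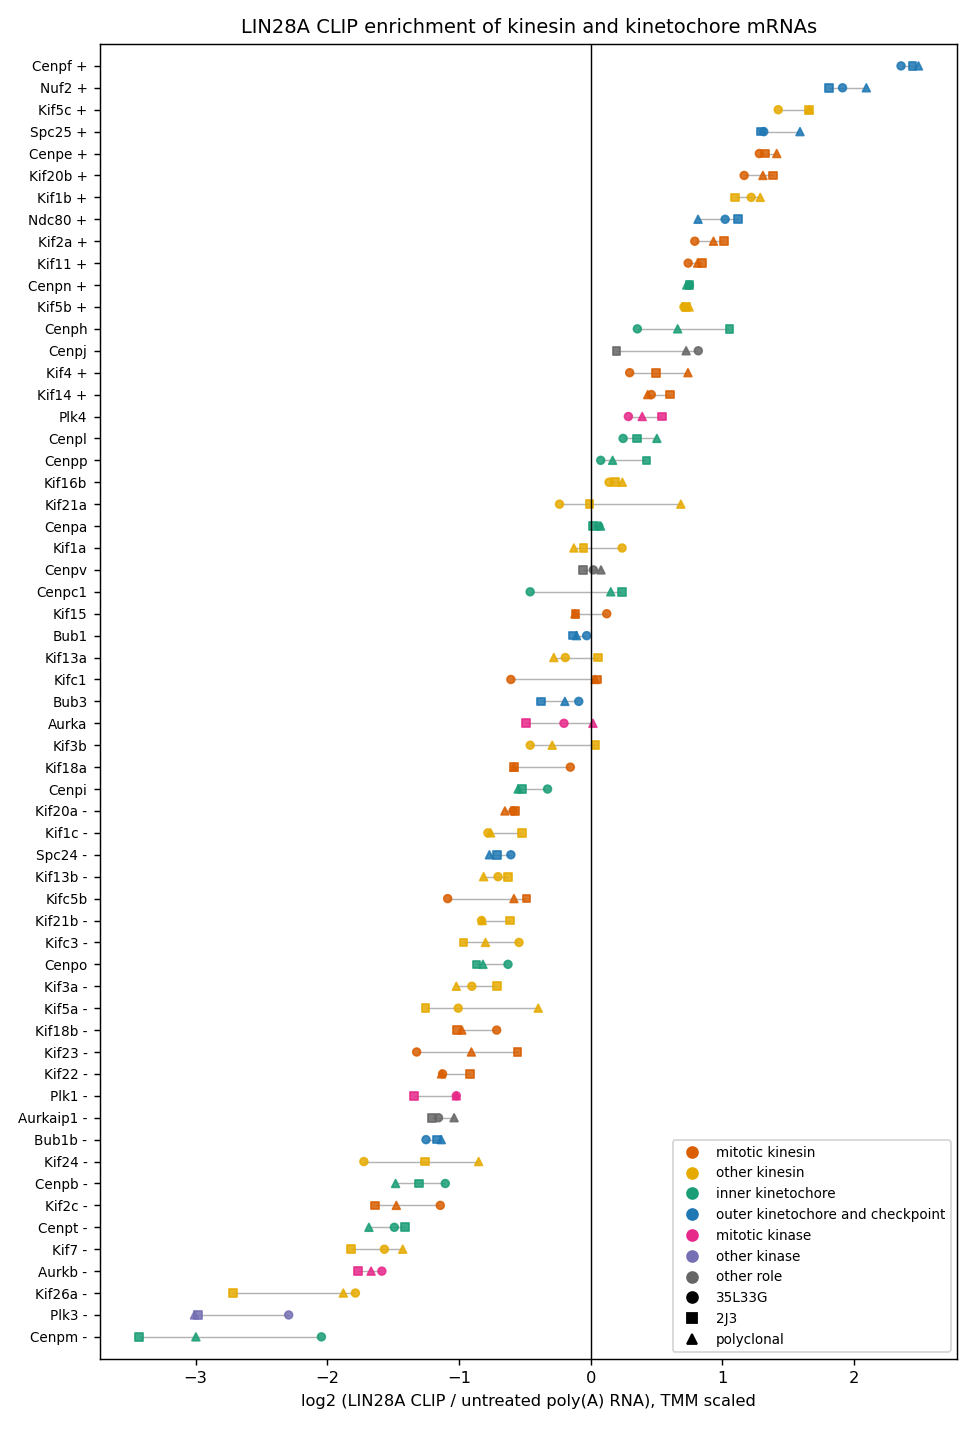
Log2 enrichment in LIN28A CLIP over untreated poly(A) RNA (x axis, TMM-scaled counts) for the 59 genes in the CLIP table, 1 point per antibody (shape) coloured by role and joined by a line; + marks enriched and - depleted genes in edgeR's test. Cenpf (2.43) and Nuf2 (1.94) stand at the top and Plk3 (−2.76) and Cenpm (−2.82) at the bottom, with all 3 antibodies on the same side of 0.

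The split between enriched and depleted genes depended on the scaling. With library totals in place of TMM factors the median of all transcripts moved to −0.40, and 11 genes were enriched and 33 depleted. The shares over all transcripts at this scaling are not given here, so these counts have no background beside them. Cenpn, Kif14 and Kif4 were no longer called with library totals (adjusted p = 0.12, 0.348 and 0.481, edgeR). Cenpa, level with the input under TMM, was then depleted (−0.32, adjusted p = 0.0441, edgeR), as were Bub1 (−0.46, adjusted p = 0.0045, edgeR) and Bub3 (−0.59, adjusted p = 0.00103, edgeR). With the poly(A) tally of the CLIP table as input, Kif24 (−1.07, adjusted p = 0.0651, edgeR) and Kif5a (−0.76, adjusted p = 0.0887, edgeR) lost their calls. Kif5a also lost its call with DESeq2 (−0.83, adjusted p = 0.07). With that input Bub3 (−0.39, adjusted p = 0.0199, edgeR), Kifc1 (−0.77, adjusted p = 0.0111, edgeR) and Kifc5b (−1.14, adjusted p = 0.0454, edgeR) became depleted and Cenph (0.72, adjusted p = 0.0467, edgeR) enriched. Calls of 5 genes also depended on single antibodies. Without 35L33G, Kif24 (−1.06, adjusted p = 0.0645, edgeR) and Kif5a (−0.83, adjusted p = 0.106, edgeR) lost their calls, and Kif5a also did so without 2J3 (−0.70, adjusted p = 0.0971, edgeR). Without the polyclonal antibody Kif4 lost its call (0.40, adjusted p = 0.0839, edgeR) and Aurka gained one (−0.35, adjusted p = 0.0494, edgeR). Cenph, a subunit of the inner layer, gained a call without 35L33G (0.85, adjusted p = 0.036, edgeR) or without the polyclonal antibody (0.70, adjusted p = 0.0357, edgeR).

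From a list of other kinetochore, checkpoint, spindle and cytokinesis genes, 46 were in the CLIP table. Of these, 5 were enriched and 18 depleted, against 34.6% and 33.3% of all 7820 transcripts. The median of the 46 genes was −0.15. The highest were Casc5, the KNL1 scaffold that sits beside the NDC80 complex (2.10 ± 0.08), Mis12 (0.77 ± 0.10) and the cytokinesis exchange factor Ect2 (0.74 ± 0.04). The lowest were the anaphase activator Cdc20 (−2.05 ± 0.18), the kinesin light chain Klc4 (−1.96 ± 0.14) and cyclin B1, Ccnb1 (−1.75 ± 0.39).

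Where along the mRNA the CLIP reads lay was compared as the share of coding plus 3′ UTR counts that fell in the 3′ UTR, with poly(A) reads tallied in the same table, whose column names no condition, beside it. Kinesin and kinetochore mRNAs carried most CLIP reads in the coding region. Among 54 genes with at least 50 such counts in every library, the median 3′ UTR share was 13.1% in CLIP and 17.7% in poly(A) RNA. Over all 7236 coding transcripts that passed the same minimum it was 30.5% in CLIP and 26.9% in poly(A) RNA. The CLIP share was above the poly(A) share with all 3 antibodies for 11 genes (20.4%), against 44.2% of all transcripts, and below it with all 3 for 27 genes (50%), against 30.2% of all. These shares carry no test.

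Cenpf showed the coding bias on the deepest counts, with 3′ UTR shares of 5.04%, 4.95% and 5.23% in the 3 CLIP libraries against 9.97% in poly(A) RNA. Plk1 had 1.20%, 1.97% and 3.37% in CLIP against 18.5% in poly(A) RNA, Kif11 9.59%, 9.02% and 9.01% against 22.5%, and Spc25 13.3%, 17.6% and 11.2% against 43.8%. In each of these the CLIP libraries lay together and below poly(A) RNA. The opposite pattern was seen in 11 genes. Of these, 3 exceeded poly(A) RNA by over 20 percentage points, or 5.56% of the 54 genes. Over all 7236 coding transcripts the share was higher, at 15.2%. The checkpoint gene Bub3 had 70.4%, 66.5% and 72.6% of its CLIP counts in the 3′ UTR, against 24.4% in poly(A) RNA. Aurka had 62.5%, 62.7% and 63.5% in CLIP against 24.1% in poly(A) RNA, and Cenpn 54.1%, 65.9% and 68.2% against 31.8%. Bub3 and Aurka thus had exon counts near or below the input and a CLIP distribution shifted towards the 3′ end, whereas the paralogue Aurkb had 26.1 ± 3.27% in CLIP (SD, n = 3) and 25.1% in poly(A) RNA. Within the NDC80 complex, Spc24 had 42.2 ± 1.19% in CLIP (SD, n = 3) against 27.3% in poly(A) RNA, Nuf2 had 5.55 ± 1.27% against 16.6%, and Ndc80, with 9 poly(A) counts in its 3′ UTR, had 0 counts there in every CLIP library.

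**Figure D2:**
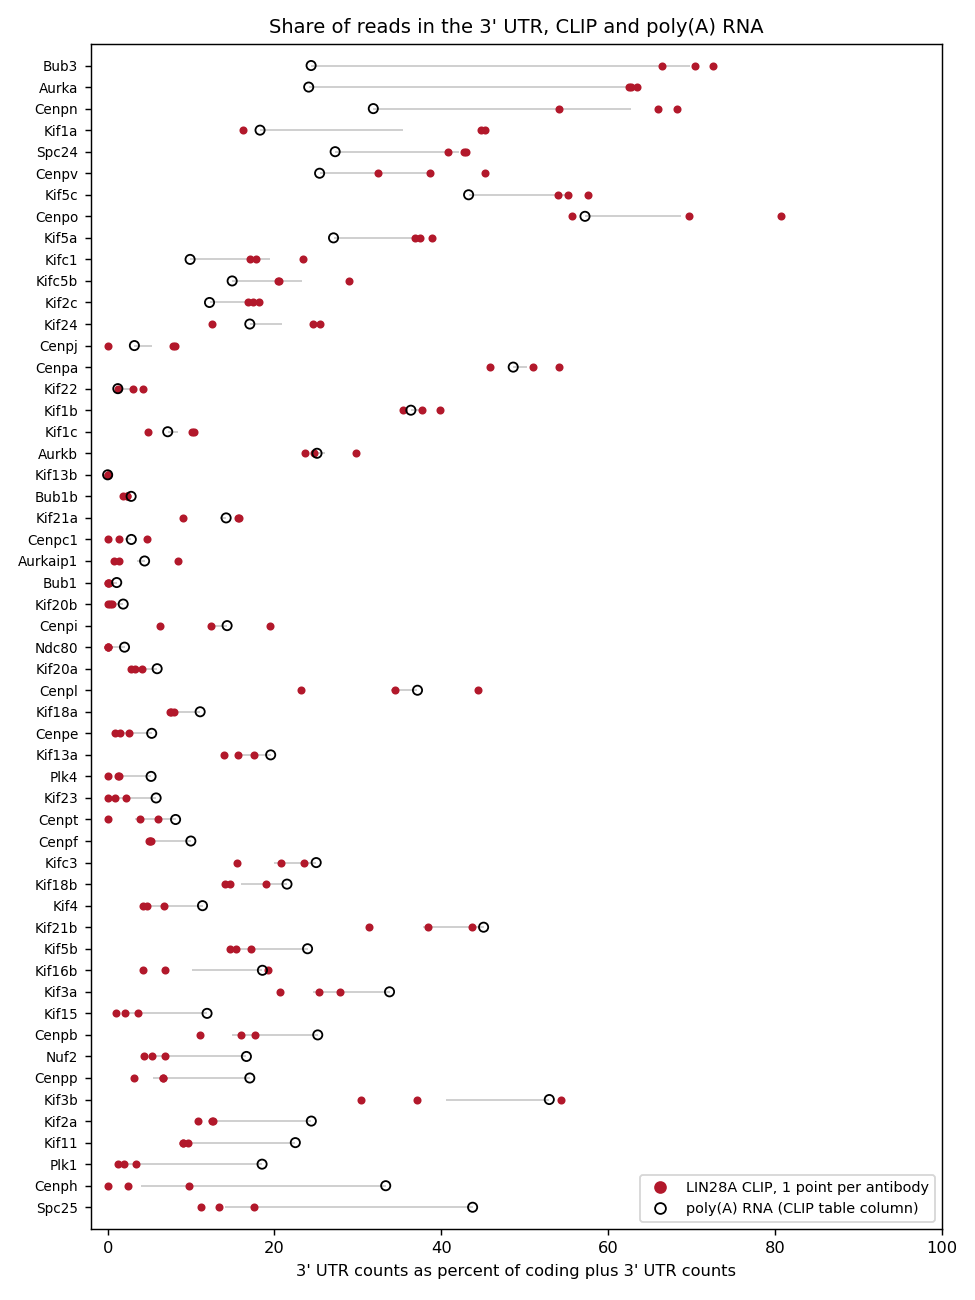
Share of coding plus 3′ UTR counts that lay in the 3′ UTR (x axis, percent) for the 54 genes, with 1 filled point per CLIP antibody and an open circle for poly(A) reads tallied in the same table; the line joins the CLIP mean to poly(A). Bub3, Aurka and Cenpn lie far to the right of their poly(A) values, and Spc25, Cenph, Plk1 and Kif11 to the left.

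What Lin28a siRNA did to mRNA levels was read from 1 library per condition, so these differences have no replicate check and no test; log2 ratios carry 95% intervals for counting error only. The mRNA differences were small. Of 65 genes with at least 200 counts over the siLin28a and siLuc libraries, 2 were higher by 1.5-fold or more and 2 lower by as much in siLin28a cells (3.08% each), against 7.62% and 4.5% of all 8859 transcripts. Their median log2 ratio was −0.13, against −0.0018 for all. Ndc80 was lowest, at 59.8 CPM (counts scaled to the library total) in siLin28a cells, 112 in siLuc and 44.7 in untreated cells, a log2 ratio to siLuc of −0.90 (−1.05 to −0.75). The siLin28a value therefore lay below siLuc but above untreated cells, with a ratio to untreated of 0.42 (0.24 to 0.60). Cenpp, an inner kinetochore gene whose locus overlaps those of Omd, Ogn, Aspn and Ecm2, was at 20.0, 30.4 and 25.4 CPM in siLin28a, siLuc and untreated cells (−0.60 to siLuc, −0.88 to −0.33). Kif5a was at 58.2 (siLin28a), 36.3 (siLuc) and 41.2 (untreated) CPM, or 0.68 to siLuc (0.47 to 0.89), above both other libraries. Plk3 was at 41.6, 27.3 and 29.4 CPM in siLin28a, siLuc and untreated cells, or 0.61 to siLuc (0.36 to 0.85).

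Untreated cells give a different picture for several of these genes, and the comparisons share libraries, so their values are set side by side. Against untreated cells, 5 genes were higher and 2 lower in siLin28a cells among 65 (7.69% and 3.08%), where 7.43% and 5.07% of all 9056 transcripts were, and the median was 0.11. Against untreated cells, 7 genes were higher and 2 lower in siLuc cells among 64 (10.9% and 3.13%), where 3.31% and 4.46% of all 8743 transcripts were, and the median was 0.17. All 15 mitotic kinesins had ratios above 0 in siLuc over untreated cells, from 0.01 (Kif18b) to 0.68 (Cenpe), against 4297 of all 8743 transcripts. The intervals of Kif14, Kif18b, Kif22, Kifc1 and Kifc5b included 0. In siLin28a over untreated cells 10 of 15 were above 0, against 4333 of all 9056 transcripts. Kif5b was at 507 CPM in siLin28a cells, 602 in siLuc and 373 in untreated cells, and Cenpe at 224, 276 and 172 CPM in the same order. For both, the siRNA libraries stood above the untreated one. Plk1 did the reverse, at 131 CPM in siLin28a cells, 147 in siLuc and 244 in untreated cells; its ratio to untreated was −0.90 (−0.999 to −0.80) in siLin28a and −0.73 (−0.84 to −0.63) in siLuc, against −0.17 (−0.28 to −0.05) between the siRNAs. All 4 mitotic kinases with enough counts had log2 ratios below 0 in siLin28a over untreated cells, between −0.35 (Plk4) and −0.90 (Plk1). Ratios below 0 were also seen in 4723 of all 9056 transcripts. Plk2, a kinase of stress and neuronal signalling, was at 36.4 CPM in siLin28a, 24.7 in siLuc and 16.4 in untreated cells, a ratio to untreated of 1.15 (0.87 to 1.42) in siLin28a. The sums of differentiation and fibroblast markers given above also differed between these libraries; their part in the ratios was not tested.

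**Figure D3:**
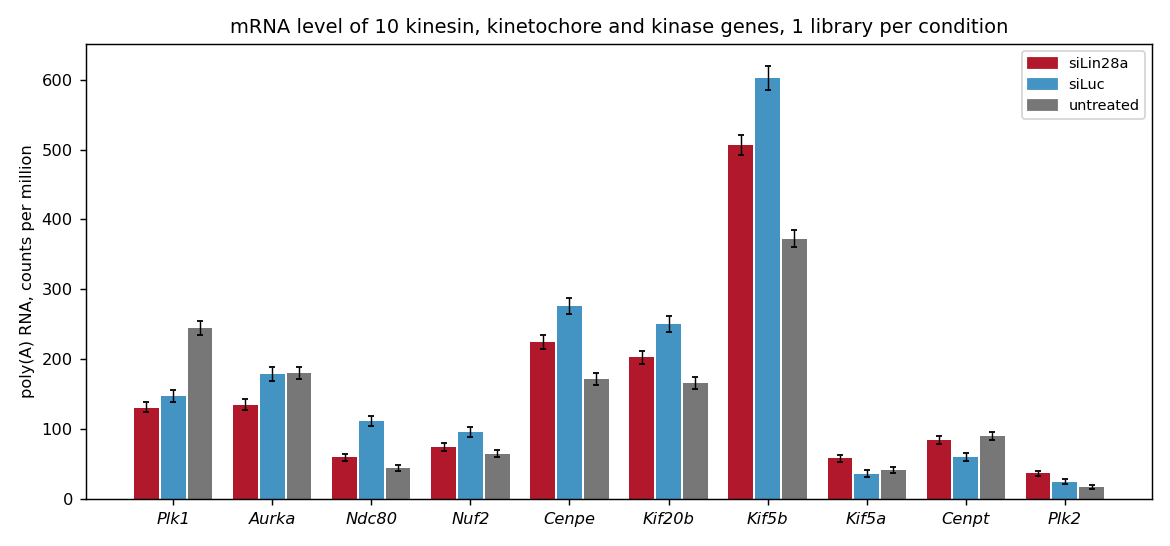
Poly(A) RNA level (y axis, CPM) of 10 genes in siLin28a, siLuc and untreated cells, 1 library each, with exact 95% Poisson intervals as error bars. Plk1 is highest in untreated cells (244 CPM), Ndc80 in siLuc cells (112 CPM), and Kif5a (58.2 CPM) and Plk2 (36.4 CPM) in siLin28a cells.

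Among the 45 other kinetochore and spindle genes with enough counts, 0 were 1.5-fold higher and 4 lower in siLin28a than in siLuc mRNA. Of all 8859 transcripts 7.62% were higher and 4.5% lower in this comparison of 1 library each. The highest of the 45 were Numa1 (0.41), the inner kinetochore gene Stra13 (0.39) and Ccnb1 (0.23). The lowest of them were the checkpoint protein Mad2l1 (−0.67), Apitd1 (−0.66) and Nsl1 (−0.65).

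Ribosome footprints of these genes differed more than their mRNA. Of 48 genes with at least 200 footprint counts over both libraries, 22 were at least 1.5-fold lower and 2 higher in siLin28a than in siLuc cells (45.8% and 4.17%), against 26.9% lower and 14.4% higher among all 6323 transcripts. By library totals the median transcript lay at −0.21 and the median of the 48 genes at −0.50. After centring on the median transcript 17 were lower and 3 higher (35.4% and 6.25%), against 16.2% and 20.8% of all. These footprint differences again compare 1 library with 1 library.

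The mitotic kinesins made up 11 of the 22 lower genes. By library totals all 14 measured were below 0, as were 4021 of all 6323 transcripts. Kif20a, which recruits Aurora B to the central spindle, was at 93.6 CPM in siLin28a and 269 CPM in siLuc footprints, a log2 ratio of −1.52 (−1.65 to −1.38); its locus overlaps that of Cdc23. Kif2c was at 31.4 and 88.1 CPM in siLin28a and siLuc footprints (−1.48, −1.72 to −1.25), Kif22 at 68.7 and 158 (−1.20, −1.36 to −1.04) and Kif11 at 98.1 and 208 (−1.08, −1.22 to −0.94). Kif20b, at 95.5 and 112 CPM, had the highest ratio of the 14 (−0.23, −0.38 to −0.08), near the median transcript at −0.21. The 3 mitotic kinases with enough footprints lay together. Aurkb was at 39.1 CPM in siLin28a and 103 CPM in siLuc footprints (−1.39, −1.60 to −1.18), Plk1 at 49.0 and 125 (−1.35, −1.54 to −1.16) and Aurka at 65.7 and 144 (−1.13, −1.30 to −0.96). In the outer kinetochore, Ndc80 had the lowest ratio of the 48, with 11.9 CPM in siLin28a and 37.4 CPM in siLuc footprints (−1.65, −2.02 to −1.27), and Bub1b 116 and 247 CPM (−1.09, −1.22 to −0.97). Cenpf, at 464 and 449 CPM, and Nuf2, at 56.0 and 54.6 CPM, were level between siLin28a and siLuc (0.05, −0.02 to 0.12, and 0.04, −0.17 to 0.25).

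The other kinesins had a median of 0.04 over 10 genes and lay on both sides of 0. Of these, 3 were at least 1.5-fold lower: Kif3a, at 9.87 CPM in siLin28a and 20.5 CPM in siLuc footprints (−1.05, −1.48 to −0.61), Kif13b, at 37.0 and 56.9 CPM (−0.62, −0.86 to −0.39), and Kif1b, at 18.2 and 27.7 CPM (−0.60, −0.94 to −0.27). Kif5b footprints were at 335 CPM in siLin28a and 335 CPM in siLuc cells (0.00, −0.08 to 0.09), and Kif5a was at 20.2 and 13.1 CPM (0.63, 0.25 to 1.01). Among inner kinetochore genes, Cenpw, the histone-fold partner of CENP-T, was at 56.2 CPM in siLin28a and 35.0 CPM in siLuc footprints (0.68, 0.45 to 0.91). Cenpt itself was at 40.6 and 75.4 CPM (−0.89, −1.11 to −0.67), so that the 2 partners lay on opposite sides of 0. Of the other kinetochore and spindle genes, 0 of 45 were 1.5-fold higher and 23 lower, against 14.4% and 26.9% of all 6323 transcripts. The median of the 45 genes was −0.59. The highest were Numa1 (0.55), Stra13 (0.35) and Anapc1 (0.32), and the lowest Mlf1ip (−1.35), Cdc20 (−1.30) and the microtubule polymerase Ckap5 (−1.17).

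**Figure D4:**
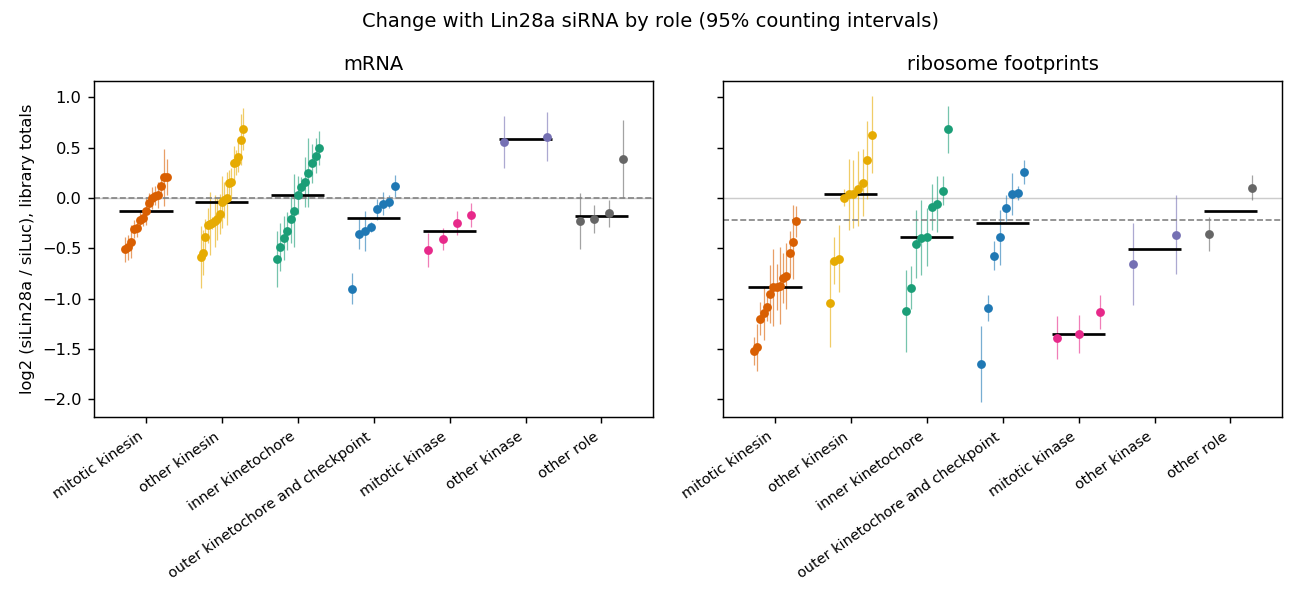
Log2 ratio of siLin28a over siLuc (y axis, library totals) for mRNA (left, 65 genes) and ribosome footprints (right, 48 genes) by role; points are genes with 95% counting intervals, black bars are role medians and the dashed line is the median of all transcripts. Footprint medians lie at −0.89 for mitotic kinesins and −1.35 for mitotic kinases, and at 0.04 for the other kinesins.

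Ribosome density sets the footprint ratio against the mRNA ratio of the same table, centred on the median transcript, so that genes differ from 0 where footprints and mRNA part. Of 60 genes with at least 50 counts in each assay, 16 were at least 1.5-fold lower and 3 higher in siLin28a than in siLuc cells (26.7% and 5.0%), against 17.0% lower and 18.6% higher among all 7799 transcripts. The median was −0.14. Without centring, where the median transcript lay at −0.22, 24 were lower and 1 higher. The shares over all transcripts without centring are not given here, and those above hold for centred values only. The lowest were Kif2c (−1.15, −1.40 to −0.89), Cenpt (−1.12, −1.40 to −0.85), Kif20a (−1.06, −1.21 to −0.91) and Kif22 (−1.01, −1.20 to −0.83). Plk3 (−0.99), Cenpj, a centriole protein (−0.99), Plk1 (−0.96), Plk2 (−0.90), Aurkb (−0.90) and Bub1b (−0.86) followed. Plk3 had more mRNA and fewer footprints in siLin28a than in siLuc cells, with a footprint ratio of −0.66 (−1.06 to −0.25) on 73 and 146 counts. For Plk2 the footprint ratio was −0.36 on 84 and 137 counts, with an interval that included 0 (−0.75 to 0.03). The higher genes were all of the kinetochore: Cenpw (1.04, 0.64 to 1.44), Nuf2 (0.68, 0.42 to 0.95) and Cenph (0.60, 0.21 to 0.99). Ndc80, whose mRNA and footprints were both lower, came to −0.54 (−0.95 to −0.14), on the other side of 0 from its partner NUF2, and Spc25 and Spc24 were at 0.57 (0.21 to 0.93) and 0.33 (0.16 to 0.51). Among 45 other kinetochore and spindle genes 3 were higher and 13 lower; the highest were Nsl1 (0.73), Anapc1 (0.61) and Mad2l1 (0.61), and the lowest Cdc20 (−1.25), Mlf1ip (−1.17) and the plus-end protein Clasp2 (−0.91).

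In siLuc cells, ribosome density itself, footprints per mRNA count relative to the median transcript, was low for the motors. All 15 mitotic and all 15 other kinesins measured lay below the median transcript, with medians of −1.0 and −1.07 on the log2 scale, and 48 of the 60 genes did. Cenpe was at −1.95, Kif14 at −2.16 and Kif21b at −2.11, and the nearest to the median transcript were Kif18b at −0.01 and Kif22 at −0.22. Inner kinetochore genes were mixed, with a median of 0.21 and Cenpm highest at 1.40. Plk4, the kinase of centriole duplication, was lowest of all 60 at −3.24.

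Enrichment in LIN28A CLIP and the change in ribosome density could be set side by side for 56 genes. Across them Spearman's rho was 0.44, and across all 7111 transcripts with both values it was 0.48; genes are not independent replicates, and all points share the same libraries. The rank correlation of CLIP enrichment with coding length was 0.18 over the 56 genes, and that of the density change with coding length −0.12. The 14 genes enriched in CLIP had a median density change of 0.03, with 1 at least 1.5-fold higher and 1 lower. The 22 depleted genes had a median of −0.73, with 0 higher and 12 lower, and the 20 not called a median of −0.08. In all transcripts the medians were 0.36 for enriched, −0.32 for depleted and 0.02 for the rest. By the same 1.5-fold limit, the 2285 enriched ones in this wider set included 862 with a rise in density and 127 with a fall. Its 2516 depleted ones included 108 with a rise and 771 with a fall. Nuf2, Cenpf, Spc25, Kif5c and Kif5b were enriched in CLIP and had density changes between 0.54 and 0.68. Kif14, also enriched, had the lowest density change of the 14, at −0.69. Ndc80, Kif11, Kif4 and Kif1b, enriched as well, had density changes of −0.54, −0.54, −0.50 and −0.47. Kif2c, Cenpt, Kif22, Plk1, Aurkb and Bub1b were depleted in CLIP and had less footprint signal per mRNA in siLin28a cells. Of the 22 depleted genes, 7 had a density change above 0. The highest was Aurkaip1, an Aurora A interactor that is also a mitochondrial ribosomal protein. It was depleted in CLIP (−1.13 ± 0.09) with a density change of 0.56 (0.38 to 0.75). Spc24 followed, with a density change of 0.33 (0.16 to 0.51).

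**Figure D5:**
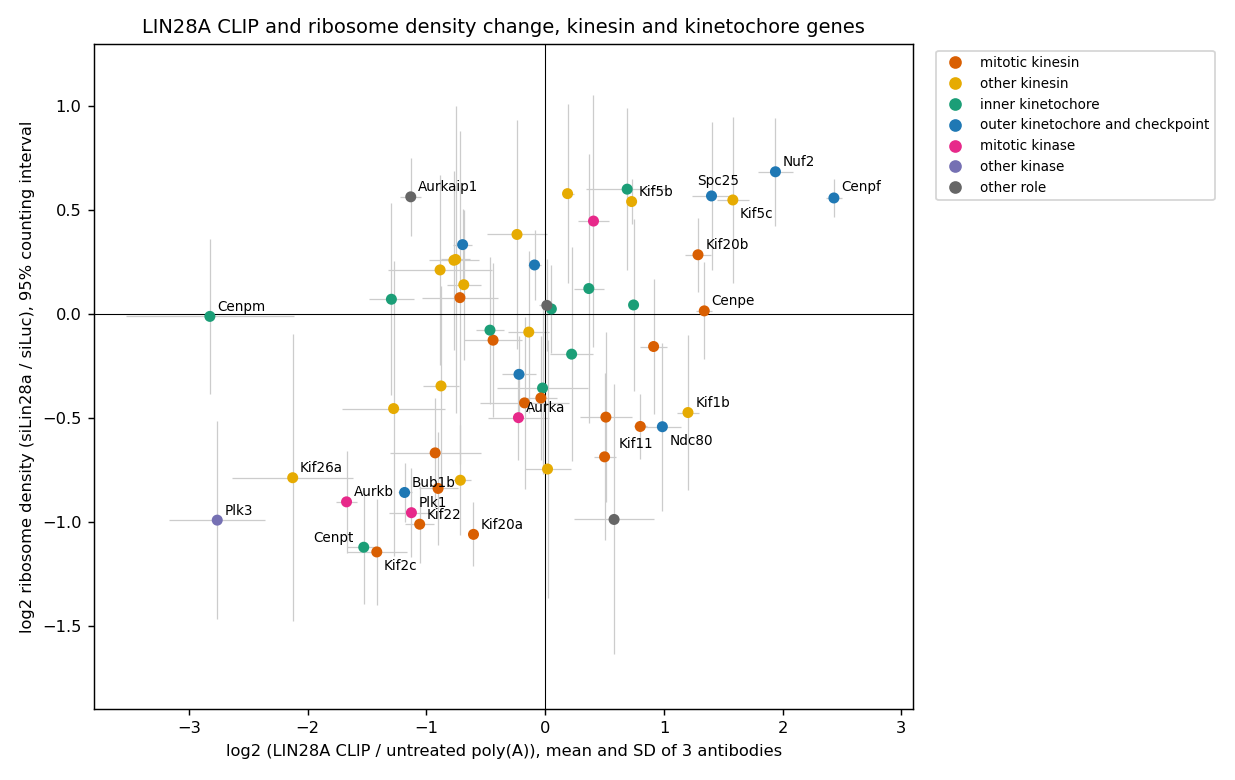
Change in ribosome density, siLin28a over siLuc, centred on the median transcript (y axis, log2, 95% counting intervals) against LIN28A CLIP enrichment over untreated poly(A) RNA (x axis, log2, mean and SD of 3 antibodies) for 56 genes coloured by role. Cenpf and Nuf2 lie at the upper right (2.43 and 1.94 on x), Kif2c, Cenpt, Aurkb and Plk3 at the lower left, and Kif11 and Ndc80 at the lower right.

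The footprint table's own poly(A) tally, used for ribosome density, differed from the poly(A) table's for some genes. Set against the median transcript, the ratio of the siLuc tallies was within 2-fold for 61 of 62 genes, but Cenpa, with 854 (siLin28a) and 555 (siLuc) counts in the footprint table, had 1682 and 1215 in the poly(A) table. Its ratio was 0.575 of the median, and those of Plk1, Cenpw and Kif20a were 1.63, 1.62 and 1.53 times the median. The log2 mRNA ratio of Cenpw, siLin28a to siLuc, was −0.14 by the footprint table's tally and 0.25 by the poly(A) table's. Spc25 had 269 (siLin28a) and 352 (siLuc) counts in the footprint table but 414 and 405 in the poly(A) table. The density changes given for Cenpw and Spc25 thus depend on the tally used. Aurkc, outside 2-fold, the germ-cell Aurora kinase, had 3 (siLin28a) and 4 (siLuc) counts in the poly(A) table but 173 and 172 in the footprint table, so no change is read for it. Apart from the loci named above, Kifc3, Cenpo, Kif7 and Kif3c overlap other transcribed loci, and Kif4 has the near-identical copy Kif4b.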

How the data were processed

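Poly(A) RNA-seq, ribosome profiling and LIN28A CLIP-seq of A3-1 cells were deposited as whole-number read counts per RefSeq transcript, not normalized by the authors, with transcript and coding lengths beside them. The mm9 build, GSNAP and bedtools are named, without roles or versions, per the submitters' processing notes; no source used here gives the counting rule. The tables hold 7820 (CLIP), 16456 (poly(A)) and 7936 (footprints) transcripts. The authors' own ratios and p-values and other per-sample columns, 21 in all, were not used.

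The genes and gene lists were chosen with earlier results of these data known, and every gene matching the symbol rule could be named; of the other pathway genes the 3 highest and the 3 lowest per comparison were named.

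CLIP exon counts (3 libraries) were tested against the untreated poly(A) counts (1 library) with edgeR 4.0.16 in R 4.3.3 (filterByExpr, TMM, quasi-likelihood test), with p-values adjusted over all transcripts of the table by Benjamini-Hochberg and a threshold of 0.05; the procedure was tested on simulated data. For log2 enrichment per antibody 0.5 counts were added as a pseudocount. Region shares left out 65 of 7733 coding transcripts, Kif14 among them, whose coding plus 3′ UTR counts exceeded their exon counts. The siRNA comparisons, with 1 library each, are log2 ratios of CPM (counts over library totals) with the same pseudocount and 95% intervals by a normal approximation on the log scale; called means at least 1.5-fold. Intervals cover counting error only, since PCR copies are not independent molecules. Counts of genes at a fold cover only those that passed the minimum count over both libraries. Ribosome density used the footprint table's own poly(A) tally and was centred on the median transcript. DESeq2 1.42.0, library totals, other minimums, pseudocounts, inputs and left-out antibodies were alternatives; footprints centred on the median transcript were added after seeing the data.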

Additional observations from a re-analysis of the deposited data

How the results depend on the processing

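Counts of genes enriched or depleted in CLIP stayed within 1.5 times of the values given under DESeq2, library totals, no filter on low counts, the CLIP table's poly(A) column as input and each left-out antibody (enriched 14 to 15 and depleted 21 to 24 without 1 antibody; median log2 enrichment −0.24 to −0.13). The shares of all transcripts called under these alternatives are not given here. With library totals the median log2 enrichment of the genes was −0.59. Genes that changed sign were not called under TMM: with library totals Cenpa (−0.32, then depleted), Cenpl (−0.000646), Cenpp (−0.15), Cenpv (−0.35), Kif16b (−0.18), Kif1a (−0.35) and Kif21a (−0.22); with DESeq2 Cenpc1 (0.0182); with the CLIP table's poly(A) column Kif15 (0.015); and with 1 antibody left out Cenpc1 (−0.15 to 0.19), Cenpv (−0.0191 to 0.0499), Kif1a (−0.10 to 0.0928), Kif15 (−0.12 to 0.0043), Kif21a (−0.12 to 0.33) and Kifc1 (−0.29 to 0.0363).

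At 2-fold in place of 1.5-fold, fewer genes qualified by construction. For footprints 0 of 48 were higher and 12 lower, against 243 and 578 of all 6323 transcripts. For density 1 of 60 was higher and 4 lower, against 409 and 294 of all 7799. In siLin28a over siLuc mRNA 0 of 65 were higher and 0 lower, against 146 and 39 of all 8859. In siLin28a over untreated mRNA 1 of 65 was higher and 0 lower, against 185 and 63 of all 9056. In siLuc over untreated mRNA 1 of 64 was higher and 0 lower, against 22 and 32 of all 8743. A minimum of 500 counts, with fewer genes tested, gave 1 higher and 13 lower for footprints, 1 higher and 10 lower for density and 1 lower for siLin28a over siLuc mRNA. A minimum of 20 counts gave 4 higher and 4 lower for siLin28a over siLuc mRNA and 4 lower for siLin28a over untreated mRNA. The numbers tested and the shares over all transcripts at these other minimums are not given here. Density without centring had 1 higher, again with no share over all transcripts beside it. Depth limits the siRNA values, whose median interval half-width on the log2 scale was 0.17 for mRNA, 0.24 for footprints and 0.37 for density. No paired analysis was possible because the labels give no replicate numbers that tie libraries of different groups, and each siRNA condition has 1 library.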
